A study of Drosophila melanogaster with 32 samples.

Results

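The 950 sites described here carried the transcription factor M1BP together with the insulator protein CP190 at an end of a single annotated gene in mock-treated Drosophila melanogaster Kc167 cells, a line derived from embryos. They were chosen by measured peaks. All peaks of the 8 mock lists, for M1BP, CP190, Su(Hw) and Mod(mdg4) with 2 libraries each, were merged into 10605 sites wherever they overlapped by at least 1 bp. A site was kept when M1BP and CP190 had a peak in both of their mock lists, when neither Su(Hw) nor Mod(mdg4) had a peak in any mock list, and when the strongest M1BP summit lay within 250 bp of an end of exactly 1 gene. The 950 sites belonged to 949 genes. The gene IPIP, on chromosome arm 2L, had a site at each of its ends.

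The peak lists came from ChIP-seq, in which DNA bound by a protein is pulled down with an antibody and sequenced. The first experiment mapped all 4 proteins in mock cells and in cells in which M1BP was knocked down with 20 µg of double-stranded RNA (M1BPKD). The second mapped M1BP and CP190 in a separate set of mock cells (mock2) and in cells given 12 µg of double-stranded RNA against Cp190 (Cp190KD). Transfected cells were kept for 5 days at 25°C, and each of the 12 groups had 2 libraries. The labels do not say what the mock cells received or whether the libraries of a group came from separate cultures, so a p-value measures the spread between these libraries, which may be technical. The 8 input libraries were not analysed here.

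M1BP is a zinc-finger protein named for the Motif 1 element of core promoters, which it binds, and it is known from many promoters of broadly expressed genes with paused RNA polymerase. CP190 is a BTB-domain and zinc-finger protein found in several insulator complexes, which are brought to DNA by sequence-specific partners such as Su(Hw). Insulators can separate enhancers from promoters and are linked to the borders of chromatin domains. Because the sites were required to lack Su(Hw) and Mod(mdg4), they show CP190 without called peaks of its partners in the gypsy insulator. The comparisons address whether CP190 at such sites depends on M1BP, and whether M1BP depends on CP190.

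The lists held 1699 to 8443 peaks, and how many reads each library had is not known here. In the mock lists 1965 sites had M1BP and CP190 in both replicates, of which 157 also had a Su(Hw) or Mod(mdg4) peak and 2 lay off the chromosome arms. Beside the 950 sites, 663 had their M1BP summit near ends of 2 or more genes and 193 lay away from gene ends. A further 136 sites had M1BP without CP190, and 736 had CP190 without M1BP, at an end of 1 gene. How much M1BP or CP190 protein remained after knockdown cannot be read from peak lists.

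The second mock set, which did not choose the sites, had peaks of both proteins at nearly all of them. M1BP had a peak at 99.5% and 99.4% of the 950 sites in mock2 replicates 1 and 2, and CP190 at 99.1% and 99.7%. Both proteins were in both mock2 lists at 932 sites (98.1%, 95% Wilson interval 97.0 to 98.8). That share was 78.4% with summits held to within 100 bp of the mock summit, and 29.3% of the rebuilt sites with lists cut to equal length, which shortens the mock2 lists of CP190 to 2031 peaks. Other sites with both proteins recurred at similar shares, 98.6% (97.4 to 99.3) near ends of 2 or more genes and 96.4% (92.7 to 98.2) away from gene ends. At sites with M1BP alone in the first mock set, mock2 gave both proteins at 11.8% (7.37 to 18.3), and at sites with CP190 alone at 25.8% (22.8 to 29.1). All intervals given here cover counting error over sites only.

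The M1BP summit lay a median of 29 bp from the gene end, and at 669 sites (70.4%) within 50 bp, inside a window of 250 bp that the choice of sites allowed. Distances are signed here, above 0 outside the gene and below 0 inside it. The M1BP summit was at a median of 7 bp (lower and upper quartiles -22.75 and 35 bp) and the CP190 summit, which the choice held to the same merged site but not to the window, at 50.5 bp (quartiles 7 and 148 bp). CP190 lay further outward than M1BP at 714 sites (75.2%), further inward at 227 (23.9%) and at the same base at 9. The gap between the summits had a median of 50 bp, and 648 sites (68.2%) had both within 100 bp. Strand was not used here, so a gene end may be a start or a finish of transcription.

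**Figure D1:**
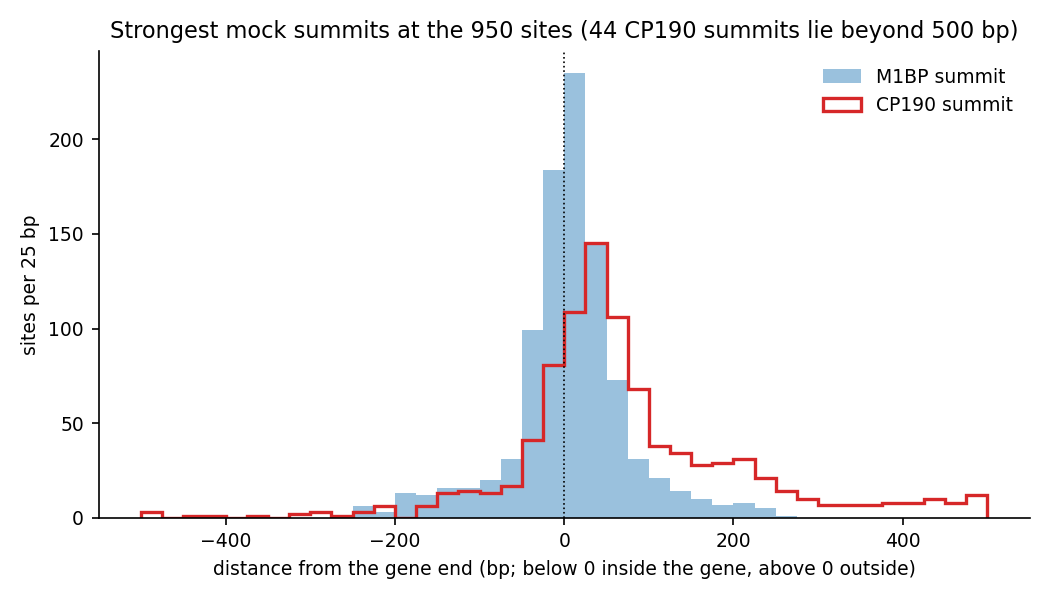
Number of the 950 sites per 25 bp (y axis) by distance of the strongest mock summit from the gene end in bp (x axis, outside the gene above 0), with M1BP filled and CP190 outlined. M1BP peaks at the gene end, with a median of 7 bp, and CP190 is shifted outward, with a median of 50.5 bp and 44 summits beyond the plotted range of 500 bp.

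The outward shift of CP190 was seen in every library group, over the sites with a peak in each list. Those were 950 sites in mock, but 296 and 293 for CP190 in Cp190KD and 691 and 670 for M1BP in M1BPKD. Median CP190 positions were 50 and 50 bp in the 2 mock lists, 51 and 46 bp in M1BPKD, 39 and 47 bp in mock2, and 58.5 and 58 bp in Cp190KD. Median M1BP positions were 7 and 9 bp in mock, 11 and 2 bp in M1BPKD, 17 and 21 bp in mock2, and 12 and 15 bp in Cp190KD. In each of the 4 treatments the lower CP190 median exceeded the higher M1BP median. The medians are not over the same sites. Among sites with CP190 in both mock2 lists, those with it in both Cp190KD lists had a median mock CP190 position of 78 bp. Those with it in neither Cp190KD list had 36.5 bp.

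By annotation 944 of the sites lay at protein-coding genes, 5 at long non-coding RNA genes and 1 at a microRNA gene. The protein-coding genes had a median length of 3404.5 bp, against 2163 bp over all protein-coding genes of the arms. The next nearest end of another gene was at a median of 486.5 bp from the M1BP summit, and at least 251 bp by the choice of sites. The sites were spread over 3R (225), 3L (204), X (194), 2R (182) and 2L (145), with none on chromosome 4. X held 20.4% of the 950 sites, 18.4% of the other M1BP sites and 15.3% of annotated genes.

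The sites at the edge of the window gave the following mock fold enrichments, that is, the authors' ratio of ChIP to control signal at the peak. Just inside, Nmdmc (250 bp) had M1BP folds of 15.2 and 10.7 in the 2 mock lists, SCCRO (248 bp) had 15.8 and 11.9, and CG9727 (246 bp) had 3.39 and 4.36. Just outside were Ctps (252 bp) with 14.0 and 10.4, pll (253 bp) with 29.0 and 30.5, and CG15742 (253 bp) with 3.77 and 4.03. The folds ran from 3.39 to 15.8 just inside and from 3.77 to 30.5 just outside.

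Fold enrichment is not scaled between lists, so strength is described as a percentile of fold within a list, averaged over 2 control lists. The median M1BP percentile of the 950 sites in the mock lists was 66.9, against 49.0 at the other M1BP sites and 34.6 where M1BP was alone at a gene end. The median CP190 percentile was 46.5, against 54.5 at the other CP190 sites and 48.0 where CP190 was alone at a gene end. Sites with both proteins near ends of 2 or more genes were similar, with medians of 65.3 for M1BP and 42.9 for CP190. Thus M1BP at the 950 sites ranked in the upper part of its own lists while CP190 ranked near the middle. This was not particular to the 950 sites, and the mock lists also chose them. Across the 950 sites the percentiles of the 2 proteins had a Spearman rho of 0.20 and a Pearson r of 0.18, a description over sites that share the same libraries.

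The highest mean mock M1BP fold belonged to eas, which encodes an ethanolamine kinase. Its site (chrX:16277558-16279061 in dm6 coordinates) lies over an end of the gene (chrX:16278328-16285618), with the M1BP summit 13 bp and the CP190 summit 49 bp outside it. The M1BP folds at eas were 38.9 and 40.3 in mock, 18.6 and 26.8 in M1BPKD, 30.0 and 43.9 in mock2, and 21.0 and 19.4 in Cp190KD. CP190 folds there were 13.7 and 17.1, 14.7 and 14.6, 20.3 and 19.2, and 2.75 and 2.67 in the same order. Both proteins thus kept a peak at eas in all 16 lists of M1BP and CP190. CG8230, CG13917, UQCR-C2 (a subunit of respiratory complex III), eIF3k (translation initiation), CG3634, H (Hairless, a co-repressor of Notch targets), CG34376 and Su(var)3-3 (a histone demethylase) also ranked among the highest, with M1BP folds of 32.7 to 42.7 in the mock lists.

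The highest mean mock CP190 fold belonged to csw, which encodes a tyrosine phosphatase of receptor signalling. Its site (chrX:2093810-2094939) spans an end of the gene (chrX:2094234-2115701), with the M1BP and CP190 summits 28 and 61 bp outside it. CP190 folds at csw were 42.7 and 48.4 in mock, 29.0 and 26.5 in M1BPKD, 30.8 and 41.4 in mock2, and 12.1 and 11.7 in Cp190KD. Other sites with high CP190 folds were those of Dna2 (a replication helicase and nuclease), RabGGTa (prenylation of Rab proteins), lace (sphingolipid synthesis), CG14795, CG7785, Socs36E (an inhibitor of JAK/STAT signalling), RpS15Aa and sp3.

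After M1BP knockdown, M1BP peaks were missing from a minority of the sites, mainly those weak in M1BP. M1BP had a peak at 72.7% and 70.5% of the 950 sites in M1BPKD replicates 1 and 2 (71.6% ± 1.56, SD, n = 2 libraries), against 100% in mock by the choice of sites. A protein is called lost at a site where both control lists had a peak and the knockdown lists had none, kept where all 4 lists had one, and otherwise in 1 list. A lost peak is one under the authors' threshold, and some binding may remain. M1BP was lost at 246 sites (25.9%, 23.2 to 28.8), kept at 657 and in 1 list at 47. Over all M1BP sites 35.1% were lost, so the share at the 950 sites was below the background. It was 29.7% (26.4 to 33.3) at sites near ends of 2 or more genes, 50.8% (43.8 to 57.7) away from gene ends and 51.5% (43.1 to 59.7) where M1BP was alone at a gene end. No test was made, because the mock lists chose the sites.

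**Figure D2:**
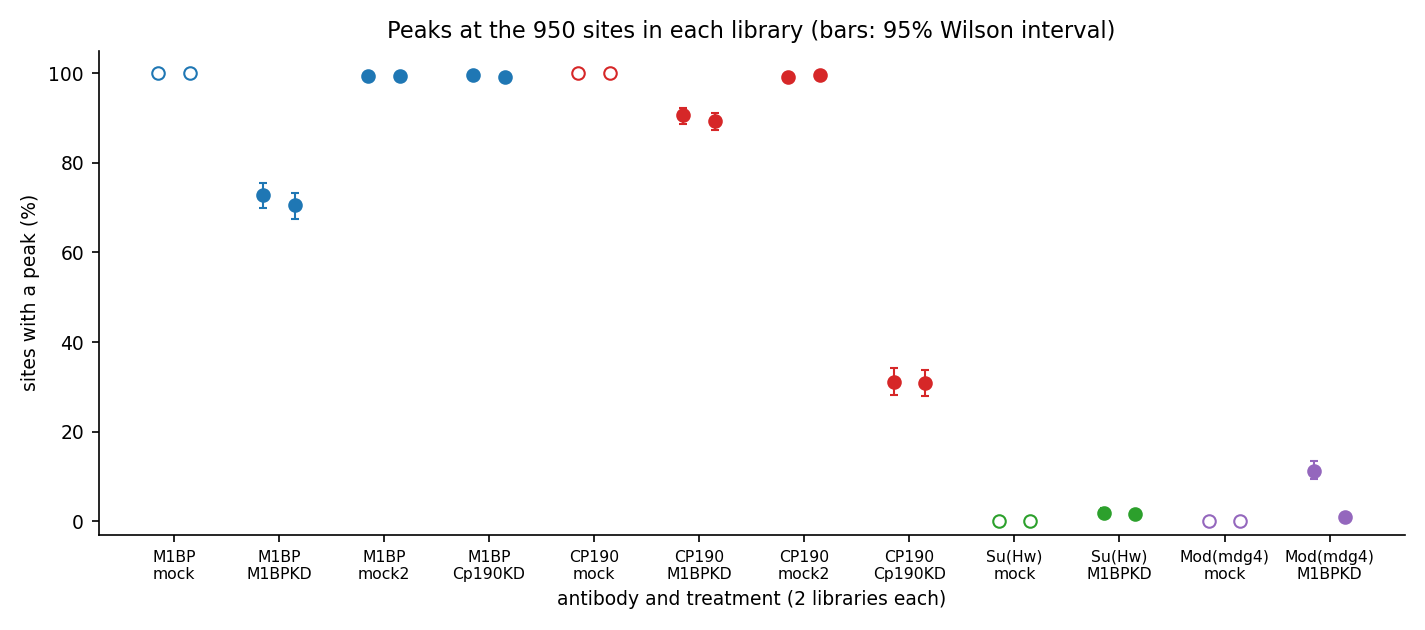
Percentage of the 950 sites with a peak (y axis) in each library by antibody and treatment (x axis), with 95% Wilson intervals as bars and open circles for the mock lists that fixed 100% or 0% by choice. M1BP falls to a mean of 71.6% in M1BPKD and CP190 to 90.0% in M1BPKD and 31.0% in Cp190KD, and Mod(mdg4) differs between the 2 M1BPKD libraries.

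The loss of M1BP followed M1BP strength in mock. Over bins of 20 percentile points, it took 49 of 52 sites in the lowest bin, 92 of 108 in the next, 67 of 226, 31 of 282 and 7 of 282 in the highest. The median mock M1BP percentile was 37.5 at lost and 75.2 at kept sites, whereas the median CP190 percentile was 46.5 and 46.9. In the lowest bin 94.2% (84.4 to 98.0) of the 950 sites and 66.2% (60.1 to 71.9) of the other M1BP sites lost M1BP. In the highest bin the shares were 2.48% (1.21 to 5.03) and 3.62% (1.98 to 6.54). M1BPKD lists of M1BP were also shorter than the mock lists. With the lists of each antibody cut to equal length, 12.7% of the rebuilt sites lost M1BP.

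Strong M1BP sites that lost the peak were few. HemK1, a methyltransferase gene, had the highest mock M1BP fold among them, at a site (chr2L:6467193-6468153) over an end of the gene (chr2L:6466217-6467698). Its M1BP folds were 37.9 and 30.1 in mock, 37.3 and 37.6 in mock2 and 31.2 and 28.5 in Cp190KD, with no peak in either M1BPKD list. CP190 at HemK1 had folds of 9.44 and 5.78 in mock and 11.4 and 8.90 in mock2, and no peak in the M1BPKD or Cp190KD lists. CG5026 and Dolk (dolichol kinase) likewise had no M1BP and no CP190 peak in M1BPKD, after mock M1BP folds of 30.4 and 31.2, and of 29.5 and 30.2. Rab23 (a small GTPase), tth, mbf1 (a transcriptional coactivator), sli (the axon guidance ligand Slit) and bwa lost M1BP but kept CP190. At Rab23 the CP190 folds were 8.83 and 11.7 in mock and 8.61 and 8.68 in M1BPKD. At sli they were 15.3 and 19.0, then 14.9 and 14.2.

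CP190 peaks stayed at most of the sites after M1BP knockdown. CP190 had a peak at 90.6% and 89.4% of the sites in M1BPKD replicates 1 and 2 (90.0% ± 0.893, SD, n = 2 libraries). It was lost at 75 sites (7.89%, 6.34 to 9.78), kept at 835 and in 1 list at 40. Over all CP190 sites 4.03% were lost. The share was 8.90% (6.96 to 11.3) near ends of 2 or more genes, 14.0% (9.80 to 19.6) at sites with both proteins away from gene ends, and 2.45% (1.55 to 3.83) where CP190 was alone at a gene end. The intervals of the 950 sites and of CP190 alone did not overlap. They count sites that share the same libraries, and no test was made, because the mock lists chose both classes.

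CP190 loss after M1BP knockdown was limited to sites with weak or middling CP190 in mock. It took 42 of 161 sites (26.1%, 19.9 to 33.4) in the lowest bin of mock CP190 percentiles, 24 of 220 (10.9%, 7.44 to 15.7) in the next, 9 of 241 in the middle, and 0 of 172 and 0 of 156 in the highest bins, which allow up to 2.18% and 2.40%. At the same CP190 strength the sites with CP190 alone lost less, with 9 of 153 (5.88%, 3.13 to 10.8) in the lowest bin and 4 of 152 (2.63%, 1.03 to 6.57) in the next. In these 2 bins the intervals of the 2 classes did not overlap, a description over sites and not a test, since the mock lists also set the bins. The higher loss was not particular to the 950 sites, since sites near ends of 2 or more genes lost 27.4% (20.3 to 35.9) and 10.7% (6.98 to 16.2) in the same bins. CP190 loss did not fall with M1BP strength. Over rising bins of mock M1BP percentiles it took 0 of 52 sites, 5 of 108 (4.63%) and 17 of 226 (7.52%). In the 2 highest bins it took 30 of 282 (10.6%) and 23 of 282 (8.16%).

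**Figure D3:**
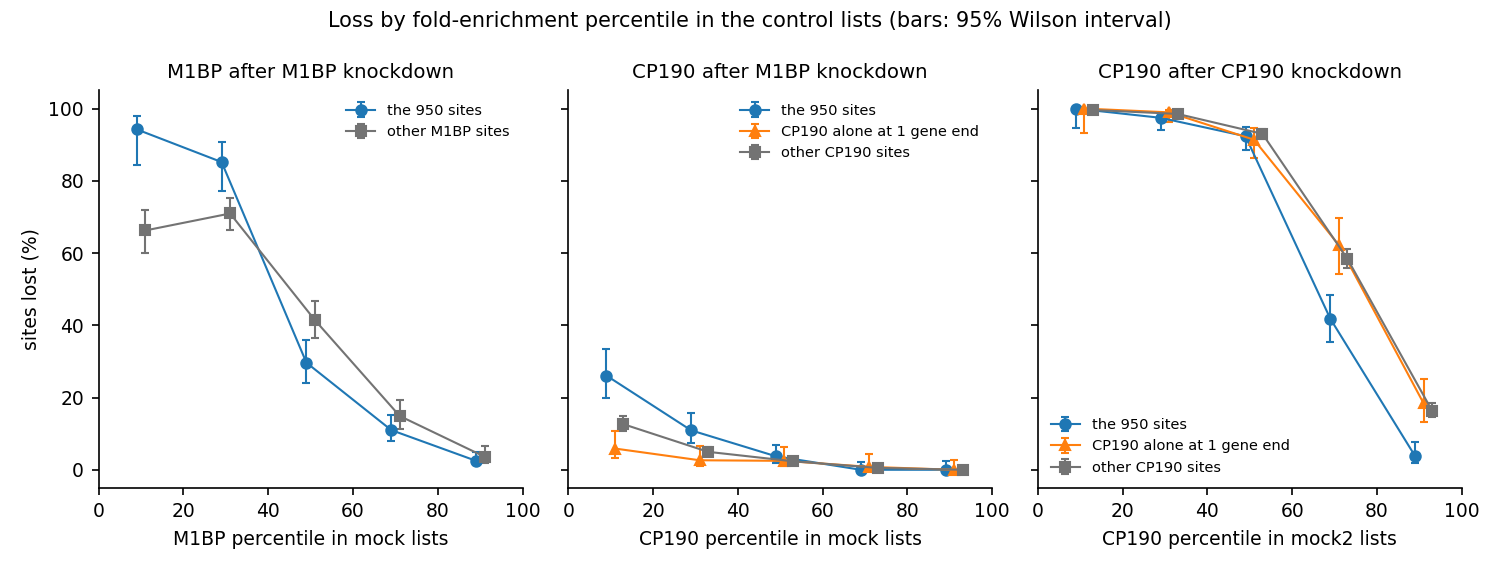
Percentage of sites lost (y axis) in bins of 20 points of the fold-enrichment percentile in the control lists (x axis), with 95% Wilson intervals, for the 950 sites (circles), sites with CP190 alone at 1 gene end (triangles) and the other sites of the protein (squares). At the 950 sites loss falls with strength in all 3 comparisons, and weak CP190 sites are lost after M1BP knockdown more often at the 950 sites (26.1% in the lowest bin) than where CP190 is alone (5.88%).

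CP190 was lost about as often where the M1BP peak stayed as where it was lost. It was lost at 18 of the 246 sites that lost M1BP (7.32%, 4.68 to 11.3) and at 50 of the 657 that kept it (7.61%, 5.82 to 9.89). The 18 sites were 24% of the 75 that lost CP190, close to the 25.9% of all 950 that lost M1BP. In the lowest bin of CP190 percentiles the counts were 8 of 46 (17.4%, 9.09 to 30.7) and 31 of 106 (29.2%, 21.4 to 38.5). The intervals overlapped in every bin. Whether a kept M1BP peak was unchanged cannot be read here, since knockdown and mock folds are not on a common scale.

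**Figure D4:**
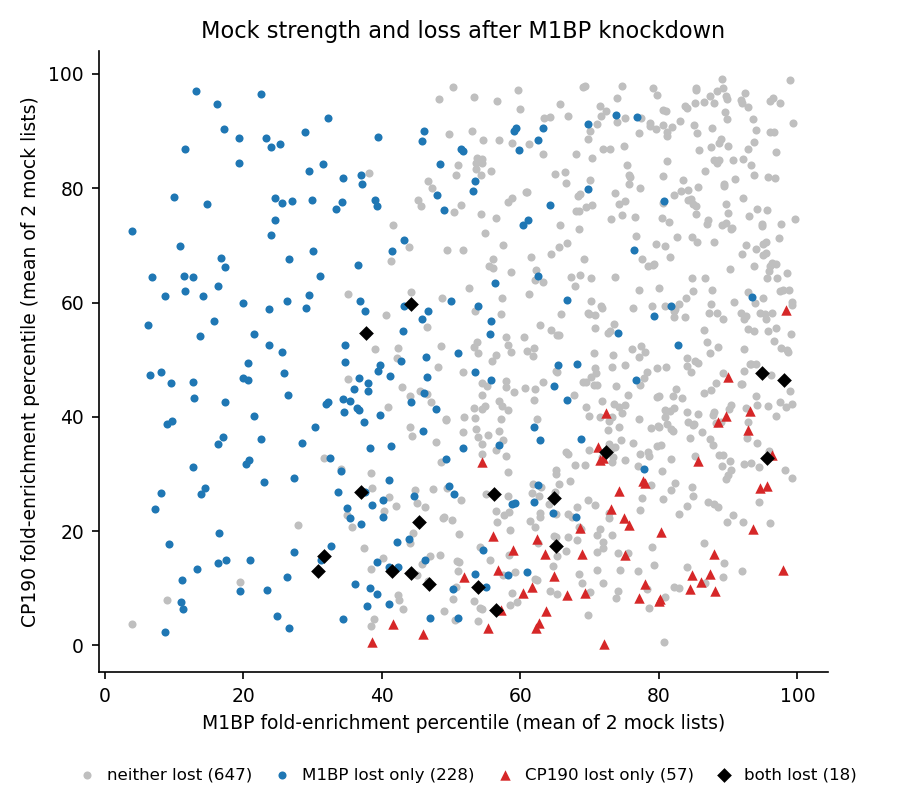
Each of the 950 sites by its mean fold-enrichment percentile in the 2 mock lists for M1BP (x axis) and CP190 (y axis), marked by what was lost after M1BP knockdown. The 228 sites that lost M1BP alone lie mostly to the left, the 57 that lost CP190 alone lie low on the CP190 axis, and 18 lost both.

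Among the sites that lost CP190 after M1BP knockdown, the highest mean mock CP190 fold was at Nthl1, a base-excision repair glycosylase gene (site chr2L:20927279-20928150). The CP190 folds there were 10.6 and 9.20 in mock and 12.7 and 11.2 in mock2, with no peak in the M1BPKD or Cp190KD lists. M1BP folds at Nthl1 were 12.7 and 9.15 in mock, again with no peak in M1BPKD. CG2218 (chr3R:30427646-30428679) had CP190 folds of 9.30 and 9.85 in mock and none in M1BPKD, while M1BP had folds of 35.5 and 33.4 in mock and 4.40 and 6.70 in M1BPKD. The same pattern, CP190 lost with an M1BP peak in both M1BPKD lists, held at Atg1 (an autophagy kinase), crb (Crumbs, apical polarity), awd (nucleoside diphosphate kinase) and Smg6 (nonsense-mediated decay). At CG7755, HemK1 and Dolk both proteins were lost, and at Vps16B, a vesicle-trafficking gene, M1BP was in 1 M1BPKD list with a fold of 2.61.

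Sites that lost CP190 after M1BP knockdown had their summits closer together. The median gap between M1BP and CP190 summits was 28 bp at the 75 lost sites and 52 bp at the 835 kept sites. CP190 was lost at 64 of 648 sites (9.88%, 7.81 to 12.4) with the summits within 100 bp and at 11 of 302 (3.64%, 2.05 to 6.40) with a wider gap. The wide-gap sites had a higher median CP190 percentile, 52.3 against 44.1, and a larger median width, 1216.5 against 996.5 bp. Within the lowest bin of CP190 percentiles the shares were 28.4% (21.0 to 37.2) and 20.0% (10.9 to 33.8), and in the next 13.3% (8.97 to 19.4) and 3.64% (1.0 to 12.3). The intervals overlapped in both bins. When a peak had to have its summit within 100 bp of the strongest mock summit, 848 sites had CP190 in both mock lists and 113 of them (13.3%) lost it.

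After CP190 knockdown, CP190 peaks were missing from most of the sites. CP190 had a peak at 31.2% and 30.8% of the 950 sites in the Cp190KD libraries (31.0% ± 0.223, SD, n = 2), against 99.1% and 99.7% in mock2 (99.4% ± 0.447, n = 2). The difference was -68.4 percentage points, and the libraries did not overlap (exact permutation test, two-sided, p = 0.33, the smallest that 2 libraries against 2 allow). Of the 940 sites with CP190 in both mock2 lists, 608 (64.7%, 61.6 to 67.7) lost it and 257 (27.3%, 24.6 to 30.3) kept it. Over all CP190 sites 67.7% were lost, so the share at the 950 sites was near the background. The Cp190KD lists of CP190 held 2031 and 2150 peaks, against 8443 and 8197 in mock2. With lists cut to equal length, 221 of the 755 rebuilt sites had CP190 in both shortened mock2 lists, and 16 of these (7.24%) lost it. The difference in peak share over the 755 sites was then 1.85 percentage points, in the opposite direction.

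Which sites kept CP190 followed the mock2 strength. Loss took 66 of 66 sites in the lowest bin of mock2 CP190 percentiles, then 190 of 195, 253 of 274, 92 of 220 and 7 of 185. Strong sites kept CP190 more often than CP190 sites elsewhere. In the next-to-highest bin 41.8% (35.5 to 48.4) of these sites and 58.5% (55.9 to 61.0) of the other CP190 sites lost the peak, and in the highest bin 3.78% (1.84 to 7.60) and 16.4% (14.5 to 18.3). Where CP190 was alone at a gene end the shares were 62.2% (54.1 to 69.8) and 18.4% (13.2 to 25.1). Sites with M1BP near ends of 2 or more genes were close to the 950 sites, with 39.4% (32.3 to 47.0) and 4.94% (1.94 to 12.0). Any peak overlapping a site counts, and site widths differed. Median widths were 1071.5 bp at the 950 sites, 927.5 bp at the other CP190 sites and 696 bp where CP190 was alone. The part of width in these shares was not tested.

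The highest CP190 folds left after CP190 knockdown were at CG14795, RabGGTa, lace, Abl (a tyrosine kinase), Wdr62, CG11050 and Socs36E, among others. At CG14795 (chrX:1512421-1513424) CP190 folds were 24.3 and 31.9 in mock2 and 24.5 and 19.2 in Cp190KD, beside weak M1BP with folds of 5.57 and 5.74 in mock2. At RabGGTa (chr3R:5126713-5128604) CP190 folds were 31.7 and 30.2 in mock2 and 26.1 and 13.6 in Cp190KD, and its strongest CP190 summit lay 973 bp outside the gene. Lace had CP190 folds of 33.6 and 43.6, then 17.6 and 16.2. Of these 7 sites, CG14795 lost M1BP after M1BP knockdown and Abl had M1BP in 1 M1BPKD list, and all 7 kept CP190 there.

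Of the 70 sites that lost CP190 after M1BP knockdown and had it in both mock2 lists, 69 (98.6%, 92.3 to 99.7) also lost it after CP190 knockdown. That was 11.3% of the 608 sites lost after CP190 knockdown. Among sites that kept CP190 after M1BP knockdown 503 of 834 (60.3%, 57.0 to 63.6) lost it after CP190 knockdown. The 2 knockdowns have separate control libraries, but both sets of lost sites ranked lower in CP190 than the kept sites. Median mock CP190 percentiles were 16.6 (lost) and 51.3 (kept) for M1BP knockdown, and 34.7 and 82.4 for CP190 knockdown. In mock2, the control of the CP190 knockdown, its lost and kept sites had medians of 43.5 and 85.4.

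M1BP stayed at nearly all of the sites after CP190 knockdown. M1BP had a peak at 99.6% and 99.1% of the 950 sites in the Cp190KD libraries (99.3% ± 0.372, SD, n = 2) and at 99.5% and 99.4% in mock2 (99.4% ± 0.0744, n = 2). The libraries of the 2 groups overlapped (exact permutation test, two-sided, p = 1), and the difference of -0.11 percentage points turned to 0.16 without Cp190KD replicate 2. Of 942 sites with M1BP in both mock2 lists 935 kept it, 6 had it in 1 list and 1 lost it (0.106%, 0.0187 to 0.599). Over all M1BP sites 2.39% were lost. The share was 0.152% (0.0269 to 0.857) at sites with both proteins near ends of 2 or more genes, close to that of the 950 sites. It was 3.74% (1.82 to 7.52) at sites with both proteins away from gene ends, and 2.59% (0.883 to 7.33) where M1BP was alone at a gene end.

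The site that lost M1BP after CP190 knockdown was at Argk2, an arginine kinase family gene (chr3L:9046751-9047893). M1BP there was weak, with folds of 5.30 and 4.30 in mock and 6.82 and 7.09 in mock2, and had no peak in M1BPKD or Cp190KD. CP190 was strong, with folds of 24.2 and 23.8 in mock, 22.7 and 19.1 in M1BPKD and 23.1 and 22.1 in mock2, and 4.12 in 1 Cp190KD list.

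Few sites took up the other insulator proteins after M1BP knockdown. Su(Hw), a zinc-finger protein that binds the gypsy insulator, had a peak in both M1BPKD lists at 12 sites (1.26%, 0.724 to 2.19), beside 1.86% of all M1BP or CP190 sites without mock Su(Hw). Mod(mdg4), a BTB-domain partner of Su(Hw), did so at 9 sites (0.947%, 0.499 to 1.79), beside 2.02% of such sites without mock Mod(mdg4). Mod(mdg4) differed between the libraries, with peaks at 107 sites (11.3%, 9.41 to 13.4) in M1BPKD replicate 1 and at 10 (1.05%, 0.573 to 1.93) in replicate 2. The Mod(mdg4) lists held 5575 and 4862 peaks in M1BPKD and 2999 and 3664 in mock, and the part of this difference in the counts was not tested.

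The gained Su(Hw) peaks with the highest folds were at sli (8.31 and 8.40 in the 2 M1BPKD lists), CG14985 (2.10 and 13.9), dlg1, a junction scaffold (8.03 and 7.94), Tomosyn, a regulator of vesicle fusion (6.52 and 6.87), and bbc (4.95 and 3.83). M1BP was lost at sli and Tomosyn and kept at the other 3. Gained Mod(mdg4) peaks included those at CG10466, with folds of 3.59 and 2.24, and at Socs36E, with 3.27 and 2.26. CG10466 and rgr gained both proteins. When a summit had to lie within 100 bp of the M1BP summit, Su(Hw) was gained at 0.105% of the sites.

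Cytoplasmic ribosomal protein genes were the best represented of the 17 lists in number, with sites at 20 of 86 genes (23.3%), beside 5.37% of all annotated genes on the arms. Cell cycle genes had the higher share, 24.1%. The sites of the cytoplasmic ribosomal protein genes had strong CP190, at a median mock percentile of 74.8 against 46.5 over all 950 sites. After M1BP knockdown 16 of the 20 kept M1BP, 4 lost it (RpS20, RpS30, RpL36 and RpS10b), and all 20 kept CP190, beside 69.2% of all 950 sites that kept M1BP and 87.9% that kept CP190. After CP190 knockdown 13 of the 20 kept CP190, 3 lost it (RpL9, RpS26 and RpL35A) and 4 had it in 1 list, beside 257 kept of 940 over all sites. RpS15Aa, with CP190 folds of 27.6 and 28.0 in mock2 and 14.7 and 7.45 in Cp190KD, was among those that kept it.

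The other lists had few sites, and their CP190 losses after CP190 knockdown are given beside 64.7% over all sites. Mitochondrial respiratory chain genes had sites at 13 of 96, of which 10 kept M1BP after M1BP knockdown and 11 lost CP190 after CP190 knockdown. SdhB, a subunit of succinate dehydrogenase, had M1BP folds of 36.0 and 34.1 in mock and 5.56 and 6.15 in M1BPKD, and CP190 folds of 10.5 and 11.8 in mock2 with no peak in Cp190KD. Mitochondrial ribosomal protein genes had 5 of 75 (CP190 lost at 4), translation initiation factors 8 of 44 (lost at 6), and cell cycle genes 7 of 29 (lost at 6). Among the last, CycA, CycB3 and aurB lost CP190 and CycB kept it. Heat shock and chaperone genes had 4 of 35 (lost at 4), RNA polymerase subunits 4 of 30 (lost at 3), Mediator subunits 4 of 29 (lost at 2), proteasome subunits 2 of 48 (lost at 2), replication licensing genes 2 of 15 (lost at 2) and Rab GTPases 2 of 31 (lost at 1). No site was found at the 33 aminoacyl-tRNA synthetase, 8 homeotic, 6 histone variant or 295 tRNA genes. In all these lists CP190 was lost after M1BP knockdown at 1 site, that of MED15, and at 1 long non-coding RNA site, beside 7.89% of the 950 sites.

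**Figure D5:**
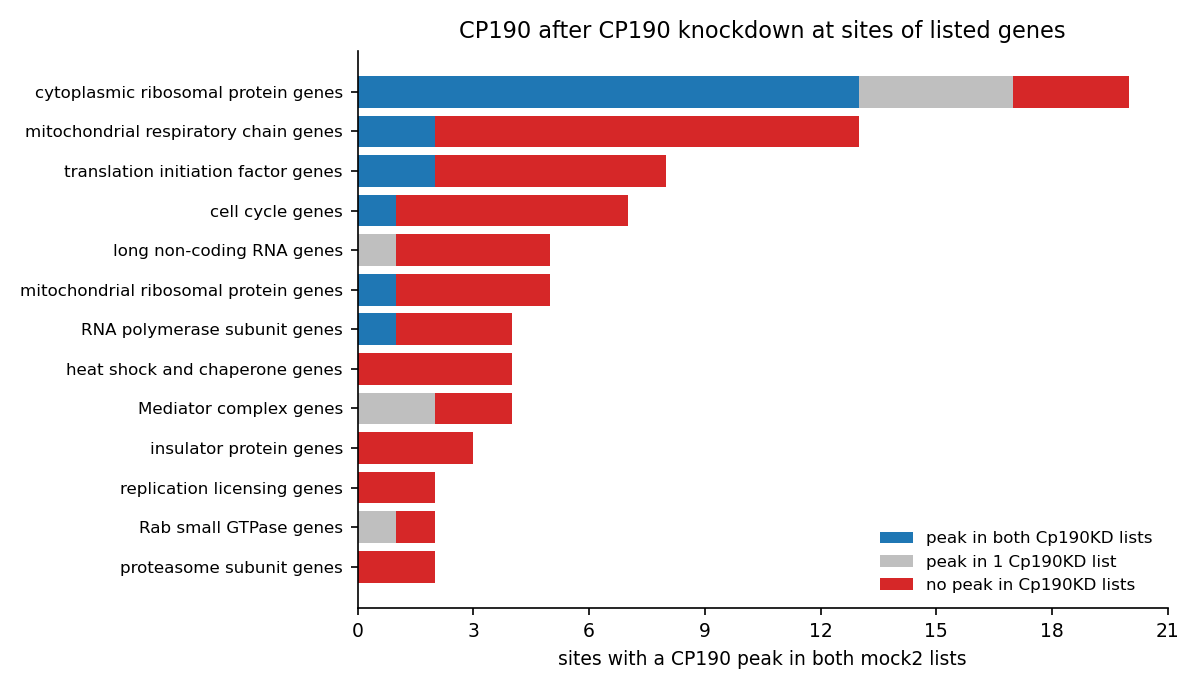
Number of sites with a CP190 peak in both mock2 lists (x axis) for each gene list with a member (y axis), divided by CP190 outcome after CP190 knockdown. Cytoplasmic ribosomal protein genes kept CP190 at 13 of 20 sites, beside 27.3% over all sites. Respiratory chain genes lost it at 11 of 13, beside 64.7% over all sites. The median mock CP190 percentiles of these 2 lists were 74.8 and 47.9.

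Genes of insulator and chromosome architecture proteins had 3 sites of 20 genes, at Cp190 itself, mod(mdg4) and Clamp. At the Cp190 gene (chr3R:15270432-15275241) M1BP had folds of 3.40 and 3.25 in mock, no peak in M1BPKD, 5.04 and 4.80 in mock2 and 6.25 and 7.01 in Cp190KD. CP190 at its own gene had folds of 5.18 and 3.19 in mock, 5.07 and 3.81 in M1BPKD, 5.10 and 5.47 in mock2 and no peak in Cp190KD. The mod(mdg4) site lost M1BP and kept CP190 after M1BP knockdown as well, with M1BP folds of 11.0 and 7.25 in mock. Clamp, which encodes a zinc-finger protein of dosage compensation, kept both, with M1BP folds of 13.8 and 10.1 in mock and 7.30 and 6.14 in M1BPKD. All 3 lost CP190 after CP190 knockdown, as did 64.7% of all sites.

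Of the 2447 long non-coding RNA genes, 5 had a site. The one best known is lncRNA:roX2 (chrX:11579065-11580432), an RNA of the dosage compensation complex, whose M1BP and CP190 summits lay 2 and 13 bp inside the gene end. M1BP folds at lncRNA:roX2 were 24.6 and 25.6 in mock, 8.86 and 11.5 in M1BPKD, 20.5 and 23.8 in mock2 and 23.4 and 22.4 in Cp190KD. CP190 folds were 4.89 and 6.82 in mock, 3.37 and 3.15 in M1BPKD and 5.45 and 7.95 in mock2, with no peak in Cp190KD. The site of lncRNA:CR32027 lost M1BP and CP190 after M1BP knockdown, and that of lncRNA:CR44299 gained Mod(mdg4), with folds of 2.46 and 2.40.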

How the data were processed

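The authors' peak lists are 1 per library. The submitters' processing notes name MACS2 2.2.5, Bowtie2 2.3.5, Picard 2.20.2 and SAMtools 1.9, without their roles or options. The fold enrichment deposited for a peak is the authors' ratio of ChIP to control signal, not scaled between libraries, and was used only to describe and rank peaks within a list. The deposited -log10 p chose the strongest summit, and the deposited -log10 q, at least 1.30 (q = 0.05), served a stricter alternative. The deposited score was not used, and the other deposited value is the summit's distance from the peak start. The build is not stated, but the names of the sequences and the largest chrM position, 19524, fit dm6.

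Merging, gene ends (17683 genes on the arms, RefSeq Release 6 annotation, without strand) and counts were computed with Python 3.11.15, pandas 2.3.3 and SciPy 1.17.1. Shares carry 95% Wilson intervals over sites. Lists held 1699 to 8443 peaks. Library shares of the second experiment were compared by exact permutation. Genes were named by rule: the highest folds for each protein and outcome, up to 3 per gene list, and those nearest the 250 bp limit. IPIP, rgr, CycA, CycB, aurB, lncRNA:CR32027 and the ribosomal protein genes listed by outcome were named after their values were seen. Not every gene the rule picks is reported here. The sites and the 17 gene lists were chosen with earlier results of these data known. No genome sequence was used here, so the planned search for Motif 1 was not run.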

Additional observations from a re-analysis of the deposited data

How the results depend on the processing

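Rebuilding the sites gave 736 (peaks of -log10 q of 10 or more), 1218 (gene ends within 100 bp), 496 (within 500 bp), 648 (M1BP and CP190 summits within 100 bp) or 755 sites (lists of equal length). M1BP loss after M1BP knockdown was 28.8% within 500 bp, 12.7% at equal length, and 27.3 to 30.4% without single replicates. CP190 loss after M1BP knockdown was 13.3% (113 of 848) with summits held to 100 bp of the mock summit, 9.88% with both summits within 100 bp, 9.27% at equal length and 8.23 to 10.6% without single replicates. M1BP loss after CP190 knockdown was 0.407% within 500 bp, 1.15% with summits held, and 0.106 to 0.637% without single replicates. CP190 loss after its own knockdown was 67.1% with stricter peaks, 67.1% within 100 bp, 61.1% within 500 bp, 63.5% with summits held, 66.6% with both summits within 100 bp, 7.24% at equal length (16 of 221 sites left in the shortened mock2 lists) and 64.5 to 68.8% without single replicates. Su(Hw) gain was 1.63% with stricter peaks, 0.105% with summits held, 0.927% at equal length and 1.36 to 2.0% without single replicates. Mod(mdg4) gain was 1.05 to 11.3% without single replicates, the highest without M1BPKD replicate 2. Recurrence in the second mock set was 99.5% with stricter peaks, 98.6% within 100 bp and within 500 bp, 78.4% with summits held, 99.1% with both summits within 100 bp, 29.3% at equal length, and 96.0 to 99.1% without single replicates. The M1BP peak share in CP190 knockdown minus second mock was 0 percentage points at equal length, and -0.52 to 0.16 without single replicates. The CP190 difference was 1.85 percentage points at equal length and -69.6 to -67.6 without single replicates. The equal-length setting shortens the control lists by construction. Without a knockdown replicate, loss or gain is called from the remaining knockdown list alone, so these shares can only stay or rise by definition. For the other settings the cause was not tested.

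Replicate numbers only name the samples. The correlation of same-numbered deviations at kept sites was 0.12 for M1BP and 0.06 for CP190 in the first experiment, and 0.05 and -0.01 in the second. With the replicate block, loss counted within same-numbered pairs, M1BP loss was 28.4% and CP190 loss 10.0% after M1BP knockdown, M1BP loss 0.424% and CP190 loss 68.8% after CP190 knockdown, Su(Hw) gain 1.79% and Mod(mdg4) gain 6.16%. The block left the 2 differences in peak share unchanged. Read depth is unknown, so a peak missing from a short list was not detectable at the authors' threshold, which does not show that the protein was absent.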

Other observations

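By chromosome arm, CP190 was lost after M1BP knockdown at 7 of the 194 sites on X (3.61%, 95% Wilson interval 1.76 to 7.26), against 8.24% (5.06 to 13.2) on 2R, 8.97% (5.31 to 14.7) on 2L, 9.31% (6.04 to 14.1) on 3L and 9.33% (6.19 to 13.8) on 3R. The interval of X overlapped those of all 4 autosomal arms. M1BP was lost at 29.4% of the sites on X and at 22.5 to 29.0% on the other arms. Gene length also differed by outcome. The median gene length was 2274 bp at sites that lost CP190 after M1BP knockdown and 3616 bp at those that kept it, and 3155.5 and 4050 bp at sites that lost or kept CP190 after CP190 knockdown. Dic1, a mitochondrial dicarboxylate carrier gene, had M1BP folds of 3.99 and 4.18 in mock, no M1BP peak in the second mock set, and gained Mod(mdg4).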
